A study of Mus musculus with 4 samples.

Results

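Interferon-stimulated genes are the antiviral and antigen-presenting genes that a cell switches on when interferon reaches it. Transcripts of a list of 39 such genes were examined in mammary epithelial cells, and were taken by symbol from the array annotation rather than by their behaviour in these samples. In all, 37 of the 39 had a probe set (the group of probes that measures a transcript) assigned to 1 symbol only, out of 22180 genes measured this way. Each of the 37 had a single such probe set. The only probe set that carries Gbp2 is also assigned to Gbp2b, and Ifi44 was not analysed here. Of the 37, 33 had a mean level at or above 2.84, the log2 level of a median probe set, and entered the test over 11668 genes. The other 4, Oas3, Ifit2, Mx1 and Trim30a, lay below that limit and are described by their levels alone.

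The samples came from mice of 4 weeks of age, all on a congenic FVB/NJ background. The MMTV-Cre group carried a transgene in which the mouse mammary tumour virus promoter, active in mammary epithelium, drives Cre recombinase, and gave 2 samples. The other group consisted of wild-type littermates without the transgene and gave another 2. Cells were taken from inguinal glands freed of the lymph node and enriched for epithelium with collagenase and spins that take off stroma, with 50 ng of RNA labelled per array. Which founder line was used, how many mice made up a sample and whether further alleles were present is not stated in the labels, and the Cre transcript was not analysed here. Replicates are labelled biological, with nothing said of the animals behind them, so the p-values measure the spread between these samples.

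Type I and type III interferons are released after a cell senses foreign nucleic acid, and interferon gamma mainly by lymphocytes. Their receptors act through JAK kinases and STAT proteins. A complex that holds STAT2 and IRF9 enters the nucleus and occupies a DNA element known as the ISRE, while the response to interferon gamma runs mainly through the GAS element. Epithelial, stromal and immune cells all respond, so in the gland these genes mark no single cell type.

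The promoters are shown first because the listed genes are defined by their control. A window from 250 bases before to 50 bases after the start of transcription was available in the RefSeq table (GRCm38.p6) for 29 of the 39 genes. The core of the ISRE, taken as GAAA repeated after any 2 bases and searched on both strands, was found in 14 of these 29 (48.3%), against 3.99% of all 27025 genes with a window. Its stricter form with CT between the repeats, a special case of the first, was found in 6 of 29 (20.7%), against 0.263% of all genes. The GAS core TTCNNNGAA, whose matches can share bases with an ISRE match, was found in 7 of 29 (24.1%), against 9.55% of all genes. A match describes letters only, and binding was not measured.

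The windows of the measured genes with 2 or more ISRE matches are printed 5′ to 3′ on the strand of the gene, because these are the promoters in which the shared element is easiest to see. Capitals mark the ISRE matches, and overlapping matches run together. The windows lie at chr4:156200769-156201068 (minus strand) for Isg15, chr19:34640639-34640938 (plus) for Ifit1, chr19:34583279-34583578 (plus) for Ifit3, chr8:71537423-71537722 (minus) for Bst2 and chr3:142559794-142560093 (plus) for Gbp3.
Isg15: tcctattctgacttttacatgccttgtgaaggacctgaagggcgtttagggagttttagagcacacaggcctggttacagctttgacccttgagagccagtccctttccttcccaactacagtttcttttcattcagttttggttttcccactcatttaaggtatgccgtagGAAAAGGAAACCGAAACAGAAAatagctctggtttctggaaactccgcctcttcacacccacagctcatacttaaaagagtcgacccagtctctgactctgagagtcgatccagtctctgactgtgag
Ifit1: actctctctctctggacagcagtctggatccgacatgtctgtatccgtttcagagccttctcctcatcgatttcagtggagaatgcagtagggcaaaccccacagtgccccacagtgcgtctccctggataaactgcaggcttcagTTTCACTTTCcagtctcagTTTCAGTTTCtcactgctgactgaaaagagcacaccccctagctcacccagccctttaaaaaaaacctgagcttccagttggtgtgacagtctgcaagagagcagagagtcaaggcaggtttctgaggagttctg
Ifit3: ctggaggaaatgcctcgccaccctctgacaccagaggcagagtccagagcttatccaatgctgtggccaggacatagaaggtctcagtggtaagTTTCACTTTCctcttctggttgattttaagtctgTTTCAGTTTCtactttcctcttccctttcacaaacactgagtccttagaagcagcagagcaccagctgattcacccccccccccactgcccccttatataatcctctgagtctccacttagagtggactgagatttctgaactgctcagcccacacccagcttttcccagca
Bst2: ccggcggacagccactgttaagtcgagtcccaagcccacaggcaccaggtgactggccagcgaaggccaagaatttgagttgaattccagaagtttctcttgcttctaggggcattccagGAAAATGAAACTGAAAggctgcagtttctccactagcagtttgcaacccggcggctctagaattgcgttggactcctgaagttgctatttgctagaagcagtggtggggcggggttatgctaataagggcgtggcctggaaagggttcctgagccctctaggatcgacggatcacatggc
Gbp3: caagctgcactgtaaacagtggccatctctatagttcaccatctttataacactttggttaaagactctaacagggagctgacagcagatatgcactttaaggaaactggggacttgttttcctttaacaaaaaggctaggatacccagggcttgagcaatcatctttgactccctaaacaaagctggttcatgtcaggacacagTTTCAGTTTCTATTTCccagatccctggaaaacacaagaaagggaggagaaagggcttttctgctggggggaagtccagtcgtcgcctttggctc
Isg15 held 3 overlapping matches, of which the nearest to the start of transcription had its first base at position −66 from it. Ifit1 and Ifit3, which lie in one gene cluster but are not adjacent, each held 2 separate matches. Bst2 and Gbp3 each held 2 that overlapped. Differences between MMTV-Cre and wild-type in these 5 genes did not all have one direction, and the genes were not tested against each other. Isg15, Bst2, Gbp3 and Ifit1 had differences from 0.28 to 0.45 above 0 and Ifit3 had one of −0.37, all with intervals that included 0.

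No interferon-stimulated gene passed the test between MMTV-Cre and wild-type. By limma, 0 of the 33 tested genes reached an adjusted p under 0.05 (smallest 0.964), where 0.0% of all genes tested did. On simulated arrays with the spread of these data, a log2 difference of 1 passed in 45.4% of cases. A gene that did not pass is therefore not shown to be unchanged. At an unadjusted limma p under 0.05, 1 of 33 was higher in MMTV-Cre (Oas2) and 1 of 33 lower (Nlrc5). Among all genes tested, 2.13% were higher and 2.19% lower by that rule. Oas2 passed the limit for dim genes only through its MMTV-Cre values. Subtracting wild-type from MMTV-Cre gave a log2 difference above 0 in 27 of the 37 measured genes, against 49.5% of all genes measured. The median difference was 0.07 over the 37 and −0.00 over all genes. Both MMTV-Cre arrays lay above both wild-type arrays in 6 of 37 (16.6% of all genes) and below both in 4 of 37 (16.3% of all genes). The share of genes with groups that did not overlap was thus close to that over all genes in each direction. Genes higher in both MMTV-Cre arrays were Oas2, Oas3, Oasl2, Bst2, Rtp4 and Parp14, and genes lower in both were Nlrc5, Ifit3, Samd9l and Trim30a.

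The count above 0 depended on single arrays. It was 20 of 37 without MMTV-Cre replicate 2, 24 without MMTV-Cre replicate 1 and 28 without wild-type replicate 2. Without wild-type replicate 1, 18 of 37 differences were above 0 (49.0% of all genes) and the median became −0.022. Differences of 9 genes turned from above to below 0, and 0 turned the other way. Both MMTV-Cre arrays then lay above wild-type replicate 2 in 8 of 37 (31.0% of all genes) and below it in 12 of 37 (33.4%). At an unadjusted limma p under 0.05, Oas2 was higher (1.21% of all genes tested were) and Nlrc5, Oasl1 and Ifit3 were lower (1.82%) without that array, and none of them passed after adjustment. The median was 0.20 without wild-type replicate 2, 0.08 without MMTV-Cre replicate 1 and 0.04 without MMTV-Cre replicate 2. With wild-type replicate 2 left out, both MMTV-Cre arrays lay above wild-type replicate 1 in 21 of 37 (33.9% of all genes). With MMTV-Cre replicate 1 left out, the remaining MMTV-Cre array lay above both wild-type arrays in 15 of 37 (34.5%), and with MMTV-Cre replicate 2 left out, also in 15 of 37 (33.4%). In each of these fits a group of 1 array is assumed to vary like the other group, and in none did an interferon-stimulated gene pass.

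**Figure D1:**
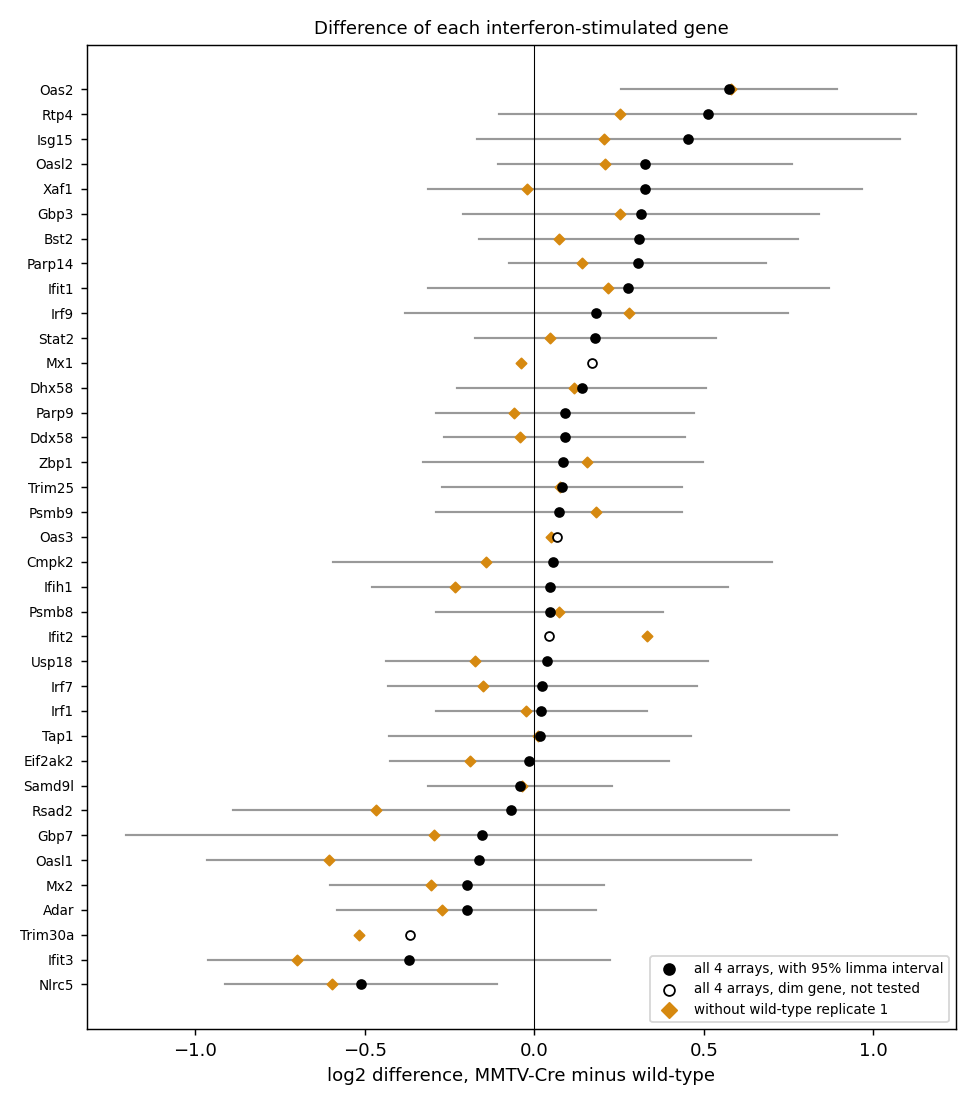
Log2 difference between MMTV-Cre and wild-type for each of the 37 measured interferon-stimulated genes, ordered by size. Filled circles use all 4 arrays, with 95% limma intervals as lines; open circles are the 4 dim genes, which were not tested; diamonds leave out wild-type replicate 1. Intervals exclude 0 for Oas2 and Nlrc5 only, and 18 of the 37 diamonds lie above 0.

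For most of the 37 genes, arrays of one group differed by more than the groups did. Wild-type replicate 1 was the lowest of the 4 arrays for 20 of the 37 genes, where it was lowest for 26.2% of all genes. It was the highest for 2 of 37, against 23.4% of all genes. It lay at least 0.2 below every other array for 8 of 37 (5.13% of all genes), namely Xaf1, Rtp4, Bst2, Isg15, Parp14, Ifih1, Stat2 and Oasl2. Compared with its fellow wild-type array, it was at least 0.2 lower for 21 of 37 genes (19.7% of all genes) and at least 0.2 higher for 2 of 37 (17.5%). The MMTV-Cre arrays also differed, with replicate 1 at least 0.2 below replicate 2 for 16 of 37 (21.6% of all genes). Over the 37 genes, the larger gap between arrays of one group had a median of 0.35, and the difference between the groups exceeded that gap in 5 of 37 genes (21.5% of all genes), where the median gap over all genes was 0.24. After subtracting each gene's own mean, the list stood at −0.16 in wild-type replicate 1, −0.03 in MMTV-Cre replicate 1, 0.08 in wild-type replicate 2 and 0.11 in MMTV-Cre replicate 2. The lower pair was thus both replicate 1 arrays and the higher pair both replicate 2 arrays, so this split followed replicate number. Whether samples with the same number had anything else in common was not tested.

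**Figure D2:**
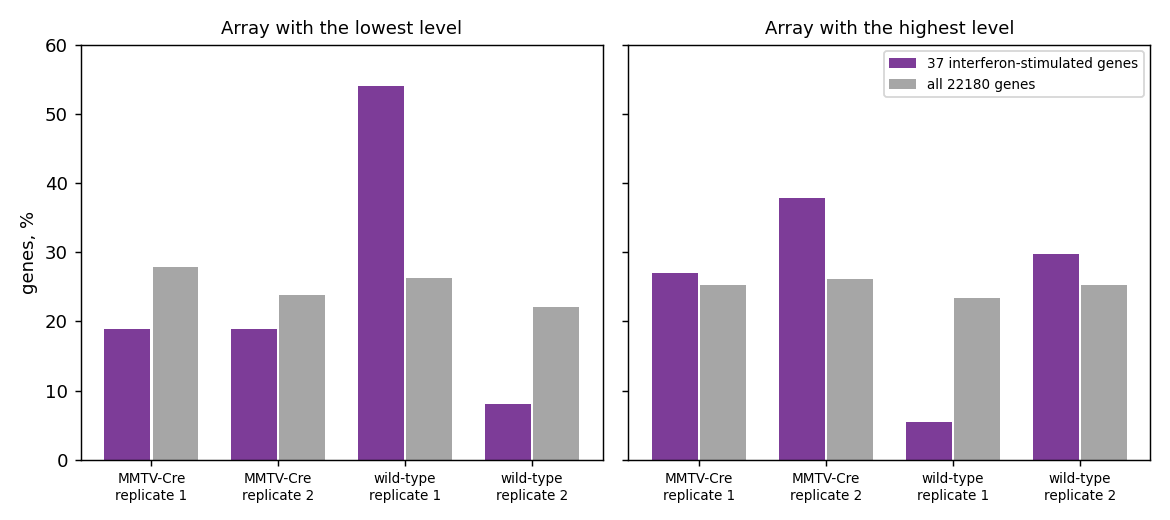
Share of genes, in percent, for which each array had the lowest (left) or the highest (right) level of the 4. Purple bars are the 37 interferon-stimulated genes and grey bars all 22180 genes; wild-type replicate 1 was lowest for 20 of the 37 and highest for 2.

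The oligoadenylate synthetase family senses double-stranded RNA and, in its active members, makes a messenger that turns on an RNA-degrading enzyme. Oas2 read 3.24 and 3.45 on the MMTV-Cre arrays against 2.78 and 2.77 on the wild-type arrays. Its groups were apart and its wild-type arrays nearly equal, so the difference was 0.57 (95% interval 0.25 to 0.89, 1.49-fold) and 0.58 without wild-type replicate 1. This was the largest difference among the 37 genes and the smallest p among the 33 tested (limma adjusted p = 0.964). Both wild-type values lay just under the limit of dimness. With a mean of 3.06 over the arrays, Oas2 entered the test only through the MMTV-Cre values, the group in which it was higher. Oas3, next to Oas2 in the genome, was dim and read 2.29 and 2.32 on the MMTV-Cre arrays against 2.22 and 2.26 on the wild-type arrays.

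Oasl2, an oligoadenylate synthetase-like protein with ubiquitin-like domains, read 4.95 and 5.30 on the MMTV-Cre arrays against 4.68 and 4.92 on the wild-type arrays. The groups were separate by a narrow margin, 4.95 against 4.92, and the difference was 0.33 (−0.11 to 0.76), or 0.21 without wild-type replicate 1. Its neighbour Oasl1, a negative regulator of Irf7 translation, ranged from 3.11 in wild-type replicate 1 to 3.99 in wild-type replicate 2, with 3.23 and 3.55 in MMTV-Cre between them. The wild-type gap of 0.88 was the widest among the 37 genes in that group, and the Oasl1 difference went from −0.16 (−0.97 to 0.64) to −0.60 without wild-type replicate 1 (limma adjusted p = 0.999).

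The Ifit proteins bind viral RNA ends and block translation. Ifit1 read 4.29 and 4.93 on the MMTV-Cre arrays against 4.27 and 4.39 on the wild-type arrays, so it was high in MMTV-Cre replicate 2 alone. The opposite array stood out for Ifit3, which read 4.09 and 4.07 in MMTV-Cre, 4.12 in wild-type replicate 1 and 4.78 in wild-type replicate 2. Its difference was −0.37 (−0.96 to 0.22) with all arrays and −0.70 without wild-type replicate 1 (limma adjusted p = 0.999). Ifit2, between 2.18 and 2.75 over the arrays, was dim.

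Mx proteins are dynamin-like GTPases that trap viral capsids. Mx2 gave 3.48 and 3.79 in MMTV-Cre and 3.72 and 3.94 in wild-type, overlapping ranges with a difference of −0.20 (−0.60 to 0.21). Mx1 was dim, between 1.45 and 2.08.

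Among the other antiviral effectors, Rtp4, a receptor-transporting protein, read 5.43 and 5.88 on the MMTV-Cre arrays against 4.89 and 5.40 on the wild-type arrays. Only wild-type replicate 1 was clearly low, since wild-type replicate 2 was within 0.03 of MMTV-Cre replicate 1. The Rtp4 difference was 0.51 (−0.10 to 1.13) and 0.25 without wild-type replicate 1. Xaf1, a partner of apoptosis inhibitors, read 6.26 and 6.44 in MMTV-Cre, 5.67 in wild-type replicate 1 and 6.37 in wild-type replicate 2. The latter lay between the MMTV-Cre arrays, and the difference was 0.33 (−0.31 to 0.96) with all arrays and −0.022 without wild-type replicate 1. Bst2, tetherin, which holds budding virus at the cell surface, gave 3.86 and 3.95 in MMTV-Cre against 3.36 and 3.83. The Bst2 difference went from 0.31 (−0.16 to 0.78) to 0.07 in the same way.

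Rsad2 (viperin) and Cmpk2 are neighbours whose products together make an antiviral nucleotide, and their array patterns resembled each other. Rsad2 read 3.85 and 4.39 on the MMTV-Cre arrays against 3.79 and 4.59 on the wild-type arrays. Cmpk2 read 3.46 and 4.07 on the MMTV-Cre arrays against 3.51 and 3.91 on the wild-type arrays. In both genes replicate 2 of each group was the higher array, the groups overlapped fully, and the differences were −0.07 (−0.89 to 0.75) and 0.05 (−0.59 to 0.70). The kinase gene Eif2ak2 (PKR) had a difference of −0.01 with a direction that turned under quantile normalization and median centring. The RNA-editing gene Adar gave 4.14 and 4.43 in MMTV-Cre and 4.41 and 4.56 in wild-type, where only MMTV-Cre replicate 1 stood clear of the others, and a difference of −0.20 (−0.58 to 0.18). Samd9l, which restricts translation, barely varied, between 5.16 and 5.21 over the 4 arrays. Its groups did not overlap, at a difference of −0.04 (−0.31 to 0.23).

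Isg15 encodes a ubiquitin-like protein that is attached to other proteins after interferon, and Usp18 the protease that removes it and also dampens the type I receptor. Isg15 read 5.80 and 6.29 on the MMTV-Cre arrays against 5.34 and 5.84 on the wild-type arrays. In each group replicate 2 was about 0.50 above replicate 1, and the difference was 0.45 (−0.17 to 1.08), or 0.21 without wild-type replicate 1. Usp18 had the same order within the groups, 4.33 and 4.57 against 4.20 and 4.63, with a difference of 0.04 (−0.44 to 0.51). The ADP-ribosyltransferase gene Parp14 read 6.45 and 6.39 on the MMTV-Cre arrays against 5.95 and 6.28 on the wild-type arrays. The Parp14 groups were separate, with a difference of 0.31 (−0.07 to 0.68), and of 0.14 without wild-type replicate 1. Its relative Parp9 had a difference of 0.09 and the RIG-I ubiquitin ligase gene Trim25 one of 0.08. Trim30a was dim and lower in both MMTV-Cre arrays, at 1.84 and 1.89 against 2.08 and 2.38.

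**Figure D3:**
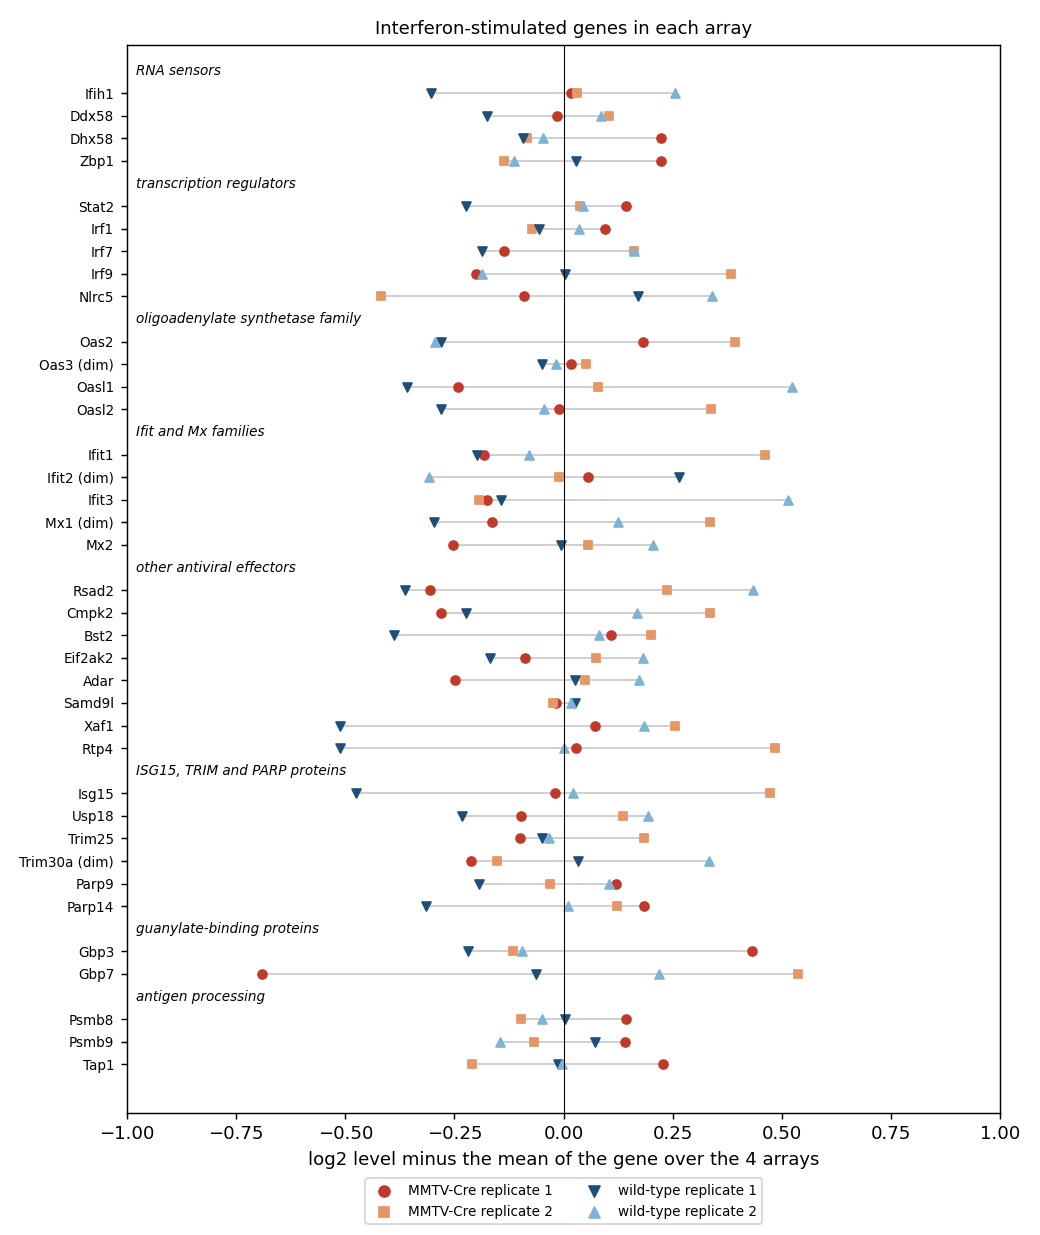
Level of each measured interferon-stimulated gene in the 4 arrays, as log2 level minus the gene's mean over the arrays, grouped by role; circles and squares are MMTV-Cre replicates 1 and 2, downward and upward triangles wild-type replicates 1 and 2. Wild-type replicate 1 lies leftmost in 20 of the 37 genes, and MMTV-Cre replicate 1 lies rightmost in 10, the antigen processing genes among them.

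RNA sensors varied little between the groups. Differences were 0.05 for Ifih1 (MDA5), 0.09 for Ddx58 (RIG-I), 0.14 for Dhx58 (LGP2), the regulator of the other two, and 0.09 for Zbp1, which senses Z-form nucleic acid and can start necroptosis. All 4 differences were above 0, and all 4 intervals included 0. Ifih1 stood at 5.34 and 5.35 in MMTV-Cre, between the wild-type values of 5.02 and 5.58, and its difference was −0.23 without wild-type replicate 1.

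Transcription regulators gave 1 gene with an interval that excluded 0. Nlrc5, the transactivator of MHC class I genes, read 3.64 and 3.31 on the MMTV-Cre arrays against 3.90 and 4.07 on the wild-type arrays. Both MMTV-Cre values were lower than both wild-type values, and wild-type replicate 1 did not set the difference, which was −0.51 (−0.91 to −0.11, limma adjusted p = 0.964) with it and −0.59 without it. Genes that Nlrc5 is known to act on had smaller differences. The peptide transporter gene Tap1 had a difference of 0.02 (−0.43 to 0.46), and the immunoproteasome genes Psmb8 and Psmb9 had 0.05 (−0.29 to 0.38) and 0.07 (−0.29 to 0.44). The class I heavy chain gene H2-K1, named after its values were seen, had −0.24 (−0.51 to 0.04). Both MMTV-Cre arrays lay below wild-type for H2-K1, at 7.13 and 7.16 against 7.41 and 7.35. The class I light chain gene B2m, also named after its values were seen, had 0.00 (−0.27 to 0.28).

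Stat2 and Irf9, which belong to the ISRE-binding complex, both had a difference of 0.18. Stat2 was low on wild-type replicate 1 only, 4.51 against 4.78 to 4.88, and Irf9 was high in MMTV-Cre replicate 2 alone, at 5.04 against 4.46 to 4.66. Irf7, which amplifies type I interferon production, and Irf1, a mediator of the interferon gamma response, each had 0.02.

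The antigen processing genes and 1 of the 2 measured guanylate-binding protein genes had the same highest array. Psmb8, Psmb9 and Tap1, which are adjacent in the genome, were all highest in MMTV-Cre replicate 1. That array was the highest for 10 of the 37 genes in all, a share close to that over all genes (5608 of 22180). Dhx58, Zbp1, Stat2, Irf1, Parp9 and Parp14 were also highest in that array, so this was not particular to the antigen processing genes. Tap1 gave 5.55 there and 5.11 to 5.31 in the other arrays. The guanylate-binding protein gene Gbp3 was likewise highest in that array, 4.72 against 4.07 to 4.20. Its neighbour Gbp7, another GTPase of this family, was lowest there, at 3.86 against 5.09 in MMTV-Cre replicate 2 and 4.49 and 4.77 in wild-type. That gap of 1.23 within the MMTV-Cre group was the widest within either group among the 37 genes, and the Gbp7 interval ran from −1.20 to 0.89.

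Upstream of these genes, 0 tested genes passed in any of the lists drawn up for the pathway, where 0.0% of all genes tested passed. Of 21 interferon ligand and related cytokine genes measured, 8 were above the limit for dim genes. Ifnb1 was dim, between 1.42 and 1.54 in the 4 arrays, and so was Ifng, between 2.14 and 2.56. Ifng was lower in both MMTV-Cre arrays. Ifnl2, a type III interferon that acts on epithelia, read 4.40 and 4.11 on the MMTV-Cre arrays against 5.06 and 4.63 on the wild-type arrays, with a difference of −0.59 (−1.09 to −0.09, limma adjusted p = 0.964). No other ligand gene had an unadjusted p under 0.05, and leaving out wild-type replicate 1 gave −0.37 for Ifnl2. Ifnl3, the other type III gene measured, was dim, between 1.69 and 2.12, and had a difference of 0.20. The Ifna genes are near-identical copies, so levels assigned to one may come from another.

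All 6 receptor genes had a mean above the dim limit, Ifnlr1 at 3.39 being nearest to it. Ifnar1, a chain of the type I receptor, had a difference of −0.23 (−0.82 to 0.36), and Ifnar2 stood between 7.01 and 7.10 in all arrays. Ifngr1, a chain of the interferon gamma receptor, reached 7.24 on wild-type replicate 1 against 6.37 to 6.41, while its partner Ifngr2 lay between 6.43 and 6.51. The epithelial type III receptor gene Ifnlr1 had 0.23 (−0.11 to 0.57). Signal transducers and genes of interferon induction had differences above 0 in 11 of 17, negative regulators in 5 of 10. Ticam1, an adaptor of Toll-like receptor signalling, gave 2.83 on wild-type replicate 1 and 3.85 to 3.87 on the rest. Irf8, a lymphoid and myeloid factor, gave 5.36 on wild-type replicate 1 against 4.43 to 4.67 elsewhere. Their differences were 0.52 and −0.46 with that array and 0.01 and −0.11 without it.

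A further list of 66 measured interferon-stimulated genes outside the 39 had a median difference of 0.05, or 0.01 without wild-type replicate 1. In it, 40 of 66 differences were above 0. Both MMTV-Cre arrays lay above wild-type for 13 genes (16.6% of all genes) and below it for 6 (16.3%). Wild-type replicate 1 lay at least 0.2 below every other array in 15 of 66 (5.13% of all genes). The same array was also the highest in 14 of 66 (23.4% of all genes). After subtracting each gene's own mean, this further list stood at −0.06 in both wild-type replicate 1 and MMTV-Cre replicate 1. By limma 0 of its 56 tested genes passed. At an unadjusted p under 0.05 it held 0 genes higher and 1 lower, the inflammatory caspase gene Casp1, at 4.29 in both MMTV-Cre arrays against 4.63 and 4.61, a difference of −0.33 (−0.60 to −0.06). The immunity-related GTPase genes Irgm2 and Igtp had 0.58 (−0.00 to 1.16) and 0.37 (−0.03 to 0.77), and lay above wild-type on both MMTV-Cre arrays. Ccl5, a chemokine of T cells, had −0.64 (−1.33 to 0.05) and stood at 8.24 in wild-type replicate 1 against 7.19 to 7.45.

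Markers of cell types were read beside these values. Epithelial markers were above the dim limit in all arrays (14 of 14), with a mean log2 level between 7.60 and 7.69. Markers of fibroblasts (13 of 13) and endothelium (10 of 10) were also above it in all arrays, so RNA of other cells was present. T and NK cell markers averaged 4.27 on wild-type replicate 1 against 2.72 to 2.83 on the rest, and 13 of 15 were highest there. Of these 15 markers, 12 were above the dim limit in wild-type replicate 1 and 5 to 7 in the others. B cell markers, 9 of 9 highest in wild-type replicate 1, averaged 3.25 there and 2.30 to 2.38 elsewhere. In bulk samples such as these, fewer cells of a type and less RNA per cell cannot be told apart.

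Endothelial markers had the same lower and the same higher pair of arrays as the 37 genes, though not the same order within the higher pair. They averaged 5.02 in wild-type replicate 1, 5.10 in MMTV-Cre replicate 1, 5.40 in MMTV-Cre replicate 2 and 5.44 in wild-type replicate 2. In 7 of the 10 endothelial markers both arrays of the lower pair lay below both of the higher pair, and in Tek, Tie1 and Eng they did not. Emcn and Pecam1, endothelial surface proteins, were among the 7. Emcn stood at 7.12 in wild-type replicate 1 and 7.25 in MMTV-Cre replicate 1, and at 7.74 and 7.79 in replicate 2 of MMTV-Cre and of wild-type. Pecam1 gave 6.83 and 6.77 in the same lower arrays and reached 7.23 in MMTV-Cre replicate 2, with wild-type replicate 2 between. Macrophage and dendritic cell markers averaged 3.70 and 4.15 in MMTV-Cre and 4.13 and 3.92 in wild-type, and fibroblast markers 6.23 and 6.80 against 6.29 and 6.35. Adipocyte markers averaged 3.92 and 4.25 in MMTV-Cre and 4.17 and 4.25 in wild-type. The means of fibroblast and adipocyte markers thus had the same lower and higher pairs. Gene by gene, both lower arrays lay below both higher arrays in only 4 of 13 fibroblast and 3 of 8 adipocyte markers. The same held for 4 of 15 macrophage and dendritic cell, 3 of 14 epithelial and 0 of 15 T and NK cell markers. This split was not counted over the 37 genes or over all genes. The part of lymphocyte, endothelial, macrophage, fibroblast or adipocyte RNA in the levels of the interferon-stimulated genes was not tested.

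**Figure D4:**
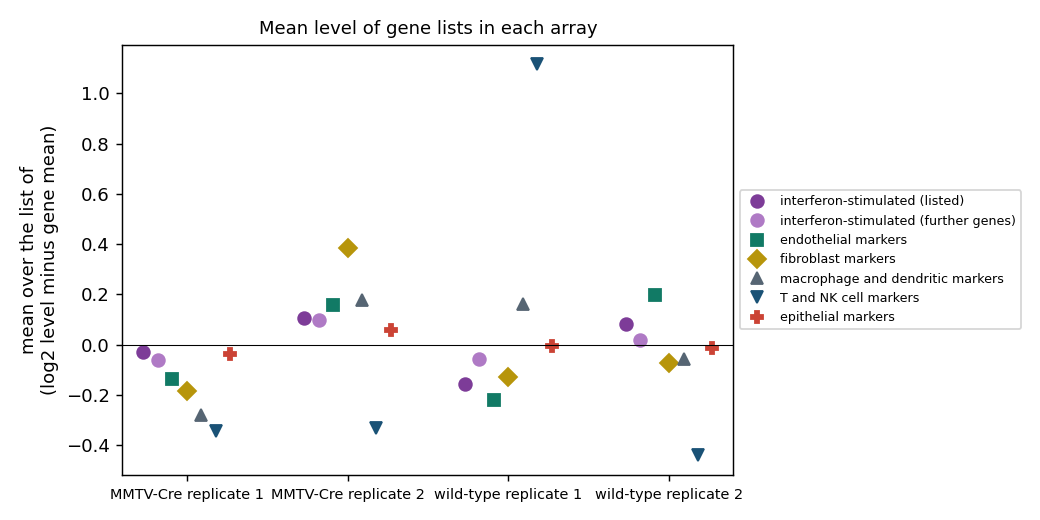
Mean over each gene list of log2 level minus the gene's own mean, for the 4 arrays. The 37 interferon-stimulated genes stand at −0.03, 0.11, −0.16 and 0.08 from left to right, endothelial markers at −0.14, 0.16, −0.22 and 0.20, and T and NK cell markers at −0.35, −0.33, 1.12 and −0.44.

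Promoter letters and array pattern were set side by side as a description. The measured genes with an ISRE match in a window (13) had a median difference between the groups of 0.07, and those with a window and no match (14) had 0.05. Between the wild-type arrays, replicate 2 minus replicate 1, the medians were 0.30 with a match and 0.05 without. For the GAS core the wild-type medians ran the other way, 0.15 with a match (7 genes) and 0.26 without (20 genes). None of these differences between sets of genes was tested.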

How the data were processed

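Each of 4 samples was hybridized to 1 Affymetrix array. The authors deposited log2 expression per probe set, made with oligo and RMA per the submitters' processing notes, without versions or a genome build. RMA gives the probe intensities of all arrays one distribution, which hides any shift common to most genes. The array medians of the deposited values still ran from 2.83 to 2.86. Levels of different probe sets cannot be compared. Of 41345 probe sets, 23521 had 1 symbol, 1814 several and 16010 none. The brightest represented each gene. Genes with a mean of at least 2.84 were fitted (limma 3.58.1, R 4.3.3, lmFit and eBayes, two-sided, Benjamini-Hochberg over 11668 genes, threshold 0.05), after a test on simulated data. The interferon-stimulated genes, the other lists and the rule for naming genes were chosen with earlier results of these data known, so lists get counts and medians but no test. Array values are printed for the 4 largest differences in each direction, the 4 smallest p and genes that turned without wild-type replicate 1 from a difference of at least 0.2; from pathway lists, up to 4 genes by p and the receptors, Ifnb1 and Ifng; from marker lists, up to 3 by level. Other array values were chosen after being seen. Alternatives covered the limit for dim genes, probe sets, normalization, variance, the replicate block and leaving out arrays.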

Additional observations from a re-analysis of the deposited data

How the results depend on the processing

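No interferon-stimulated gene passed by adjusted p in any fit, whether the limit for dim genes was dropped or raised, probe sets were averaged, arrays were quantile normalized or centred on the median, eBayes used a trend or robust variance, or an array was left out. With an unadjusted p under 0.05 in its place, the count was 504 over all genes and 2 over the interferon-stimulated genes, against 0 in both. Leaving out 1 array at a time gave 0 to 13 genes in all (13 with wild-type replicate 2 absent) and a median over the 37 genes of −0.022 to 0.20. Differences above 0 numbered 18 to 28 in those fits. Genes higher in all MMTV-Cre arrays numbered 8 to 21 in them, and 3 under the raised limit, which kept 26 genes. The direction of Eif2ak2 turned with quantile normalization (0.012) and with median centring (0.0092). In the same fits with 1 array absent, 22 genes changed direction, over these ranges of log2 difference: Gbp7 (−0.77 to 0.46), Oasl1 (−0.60 to 0.28), Rsad2 (−0.47 to 0.33), Cmpk2 (−0.25 to 0.36), Ifih1 (−0.23 to 0.33), Tap1 (−0.20 to 0.24), Eif2ak2 (−0.19 to 0.16), Usp18 (−0.18 to 0.25), Irf7 (−0.15 to 0.20), Irf9 (−0.11 to 0.48), Zbp1 (−0.095 to 0.26), Psmb8 (−0.074 to 0.17), Irf1 (−0.063 to 0.11), Trim25 (−0.059 to 0.22), Parp9 (−0.058 to 0.24), Ifit1 (−0.044 to 0.60), Ddx58 (−0.040 to 0.22), Psmb9 (−0.035 to 0.18), Xaf1 (−0.022 to 0.67), Dhx58 (−0.014 to 0.29), and among the dim genes Ifit2 (−0.24 to 0.33) and Mx1 (−0.078 to 0.42). The cause was not tested. Treating each probe set separately changed nothing, since each gene had 1. Deviations of samples with the same replicate number had a correlation of −0.04 over the genes tested, which was not computed for the 37 genes alone. This cannot show whether the samples were paired, since a pairing could touch only part of the genes. The replicate block gave 0 genes. With 2 arrays a group no exact two-sided permutation p can go below 0.333. Signal near background limits Oas2, Dhx58 and the 4 dim genes.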
